A study of Mus musculus with 199 samples.

Results

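The libraries described here are the 33 laser captures, each of 10 cells, that came from liver colonies of the KP1 line grown in nude hosts. They are 33 of the 199 libraries of the series. KP1 is a mouse small-cell lung cancer line whose genotype the labels give as Rb1-/-Trp53-/-, and the nude host is an immunocompromised mouse strain. Per the labels, the cells were cut out of 8 µm frozen sections. Their poly(A) RNA was copied to cDNA, which was PCR-amplified and tagmented with the Nextera XT kit. The sets were chosen by the level of Alb, the albumin transcript, as CPM, the share of a library's gene counts scaled to a fixed total. The 16 highest libraries were compared with the 16 lowest, and the 1 library between them was left out. The sets rest on a measured value and are no treatment groups. The labels do not give the number of mice, so p-values speak for captures and not for animals. Other libraries used were 35 pool-and-split controls of the same nude liver material, 31 captures from KP1 colonies in livers of F1 mice and 28 captures from KP1 spheroids in culture. By their name, the pool-and-split controls are 10-cell equivalents divided from pooled material. All of these carry the KP1 genotype of Rb1-/-Trp53-/-. The design text names immunocompromised and immunocompetent hosts, and the labels say no more of the F1 mice.

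Albumin is the most abundant secreted protein of hepatocytes, the parenchymal cells of the liver. Hepatocytes also secrete apolipoproteins, protease inhibitors, clotting factors, complement and carriers of haem and iron, and much of this output is controlled together by a small set of liver transcription factors. A small-cell lung cancer cell is a neuroendocrine cell and is not known for making these proteins. Alb reads in a tumour capture therefore serve as a marker of hepatocyte RNA. Fewer hepatocytes in a capture and less RNA per hepatocyte cannot be told apart in these libraries.

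Alb lies on chromosome 5 of GRCm38 at chr5:90460897-90476602 in the deposited table. Alb ranged from 326 to 1336 CPM in the high set, with a median of 520 CPM, and from 0 to 269 CPM in the low set, with a median of 73.3 CPM. These values chose the sets and were not tested. The library just inside the high set, library 13, had 326 CPM, the middle library 15 had 274 CPM, and the library just inside the low set, library 17, had 269 CPM. The order is therefore nearly continuous at the border of the sets. Alb had no count in low library 5, and low libraries 28 and 30 had 2.97 and 15.3 CPM. In the 28 spheroid captures Alb had 0 counts in every library. All but 1 of the 33 liver captures thus held Alb reads, the high and low sets alike.

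**Figure D1:**
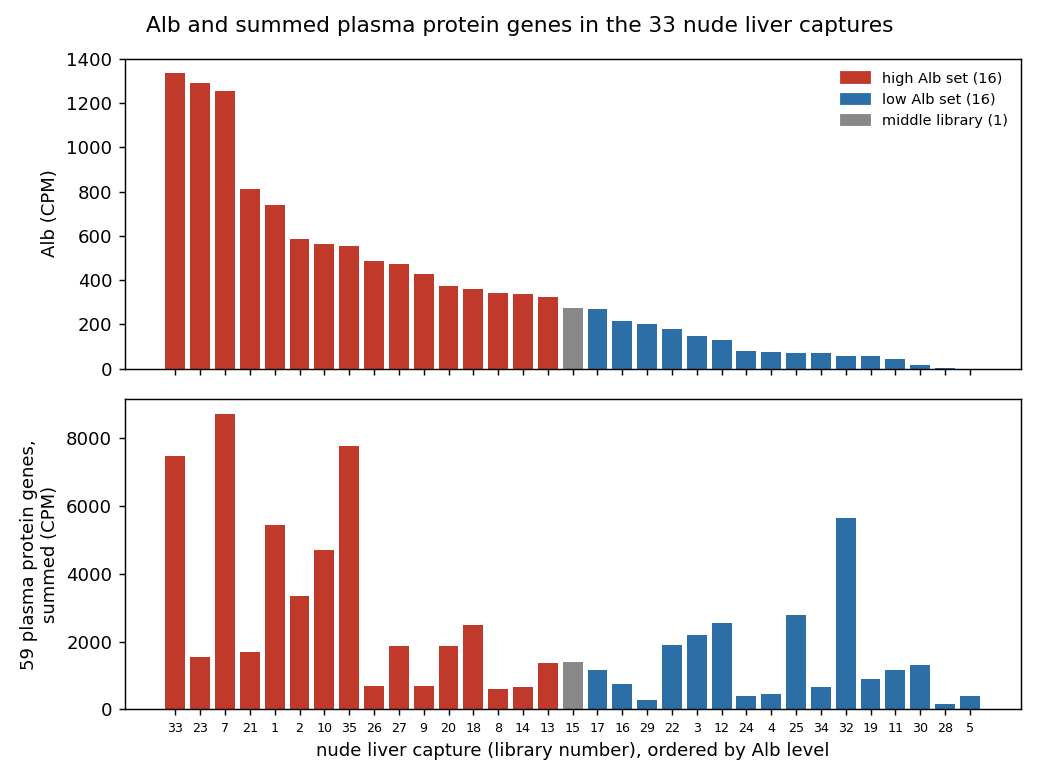
Alb level (upper bars, CPM) and the summed level of 59 other hepatocyte plasma protein genes (lower bars, CPM) in each of the 33 nude liver captures, ordered by Alb. The plasma protein sum reached 8712 CPM in the high set and 5633 CPM in low library 32, where C3 and Ahsg made up most of it. In all, 5 low libraries were among the 16 highest by this sum.

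The promoter of Alb, and those of 3 of the 10 genes most like it in level, are shown because the sets rest on Alb and these genes lay with it. The 3 are Hpx and Ambp, the closest, and Mug1, a plasma protease inhibitor at rank 7, which was picked as an example because it holds the motif described next. Each sequence holds the 250 bases before the RefSeq start on GRCm38.p6, written 5′ to 3′ on the gene's strand. Capitals mark GTTAAT on either strand, the core of the element bound by the liver factor HNF1. Alb spans chr5:90460620-90460869 on the plus strand, Hpx chr7:105600117-105600366 on the minus strand, Ambp chr4:63154173-63154422 on the minus strand and Mug1 chr6:121838291-121838540 on the plus strand.
Alb: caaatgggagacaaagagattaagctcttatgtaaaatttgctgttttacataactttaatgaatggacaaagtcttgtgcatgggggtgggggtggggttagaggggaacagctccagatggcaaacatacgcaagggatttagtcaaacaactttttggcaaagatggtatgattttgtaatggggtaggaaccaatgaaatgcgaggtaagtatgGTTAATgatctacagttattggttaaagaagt
Hpx: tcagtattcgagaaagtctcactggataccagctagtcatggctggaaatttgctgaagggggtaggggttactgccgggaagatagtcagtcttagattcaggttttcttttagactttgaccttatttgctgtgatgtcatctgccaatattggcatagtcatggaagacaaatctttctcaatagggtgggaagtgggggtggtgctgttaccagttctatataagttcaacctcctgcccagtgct
Ambp: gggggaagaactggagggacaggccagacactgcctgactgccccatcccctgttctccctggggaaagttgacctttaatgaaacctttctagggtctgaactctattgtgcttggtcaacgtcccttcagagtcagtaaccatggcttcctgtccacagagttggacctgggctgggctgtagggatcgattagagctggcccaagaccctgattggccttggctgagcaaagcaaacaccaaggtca
Mug1: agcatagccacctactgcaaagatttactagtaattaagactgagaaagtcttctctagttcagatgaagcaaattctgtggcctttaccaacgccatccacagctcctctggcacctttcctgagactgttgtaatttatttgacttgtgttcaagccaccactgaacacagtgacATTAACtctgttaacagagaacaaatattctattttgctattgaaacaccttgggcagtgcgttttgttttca
Alb holds 1 match, 32 bases before the start, and Mug1 holds 1 match, 73 bases before it. Hpx and Ambp hold no match in this window. Of 32851 promoters in the same RefSeq table, 6.43% held the motif. Of the 17 plasma protein genes tested below, 10 had a promoter in the table and 3 of these held it. A match is a description of letters and not a binding site.

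Library quality was compared first, since it could move with the sets. Gene counts per capture ran from 718208 to 4239792 and averaged 2960490 ± 765930 in the high set and 2564320 ± 963432 in the low set (SD, n = 16 each; adjusted p = 0.291). Spike-in ERCC transcripts took 1.35 ± 1.71% of counts in the high set and 3.69 ± 7.63% in the low set (adjusted p = 0.291). Genes detected at a common depth of 718149 counts numbered 8618 ± 1146 and 8011 ± 1217 (adjusted p = 0.291), and mitochondrially encoded genes took 2.29 ± 1.70% and 2.30 ± 1.27% of gene counts (adjusted p = 0.982). These 4 two-sided permutation tests used 100000 resamples and a Benjamini-Hochberg adjustment. The high set thus had the higher average depth and gene number, by differences that did not pass. Low library 30 stood apart with 31.8% ERCC counts and the smallest gene total, and low library 5 and high library 35 also exceeded 5% ERCC.

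No gene was called between the sets by edgeR's quasi-likelihood test, which fitted 6438 genes with Alb left out (0 called, 0.0%; lowest Benjamini-Hochberg adjusted p = 0.264). At an unadjusted p under 0.05 there were 565 genes (8.78%), 226 higher (3.51%) and 339 lower (5.27%) in the high set. DESeq2 called 13 of the same genes, 9 higher and 4 lower, and limma-voom called 0. In simulated counts for these libraries, edgeR recovered 1.49% of genes changed 2-fold, 23.9% of those changed 4-fold and 63.6% of those changed 8-fold. Changes of 4-fold or less were therefore mostly beyond reach, and part of the 8-fold changes were missed. Over the 6438 genes the log2 fold change had a median of -0.04, and 47.8% lay above 0. Unless another model, setting, library group or contrast is named, a fold change below is the high against the low set of captures. It is then on the log2 scale of this edgeR fit, in which none passed the adjusted threshold.

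Plasma protein genes other than Alb were the list that lay highest among those with more than 6 tested members. Some smaller lists lay as high or higher. Interferon and MHC class I genes had a median of 0.96 over 6 tested. The major urinary protein and macrophage lists had 1.23 and 1.07, on 1 tested gene each. Of the 59 plasma protein genes, 58 were seen in the sets and 17 passed the filter on low counts. The filter can keep a gene that is high in 1 set alone, so the 17 do not stand for all 59. Of these 17, 16 had a log2 fold change above 0 against 47.8% of all genes, and their median was 0.95 against -0.04. Of the 17, 4 were higher and 0 lower at an unadjusted p under 0.05, and edgeR called 0 after adjustment. The highest of them were scavengers of haem and haemoglobin.

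Hpx, which encodes the haem carrier hemopexin, had a lowest level of 4.01, a median of 133 and a highest level of 2318 CPM in the high set, against 0, 15.7 and 554 CPM in the low set. Its log2 fold change was 2.74 (SE 1.07, edgeR adjusted p = 0.460), and 3.82 without low library 25. Hpx was seen in all 16 high captures and in 11 low ones, and 4 high captures lay above every low one. Hp, the haemoglobin carrier haptoglobin, had 0, 151 and 1423 CPM in the high set and 0, 3.93 and 283 CPM in the low set, as lowest, median and highest. Its log2 fold change was 3.05 (SE 1.24, edgeR adjusted p = 0.487), and 3.90 without low library 25, and 7 high captures lay above all low ones. The low captures nevertheless overlapped the high ones for both genes, since 1 high capture had no Hp read.

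Ambp, the precursor of the protease inhibitor bikunin and of alpha-1-microglobulin, had 0, 64.0 and 278 CPM in the high set and 0, 8.87 and 94.0 CPM in the low set. The log2 fold change of Ambp was 2.24 (SE 0.86, edgeR adjusted p = 0.457). With log2 Alb as a continuous covariate over all 33 captures, Ambp passed the test at a slope of 0.96 per log2 unit of Alb (edgeR adjusted p = 0.0217). That setting called 42 of 6438 genes, and most fell with Alb, 35 lower against 7 higher. Ambp passed again without library 5, which has no Alb, at an adjusted p of 0.0373. Without library 5 and library 28 the slope was 0.97, but Ambp was no longer among the genes that passed (edgeR adjusted p = 0.0741). The sets overlapped, with 5 high captures above all low ones.

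The apolipoproteins, which carry lipid in the blood, lay on the same side with smaller differences. Apoe had 14.8, 99.2 and 793 CPM in the high set and 2.89, 63.9 and 168 CPM in the low set, a log2 fold change of 1.92 (SE 0.58, edgeR adjusted p = 0.356). With no filter, a setting that called 2223 genes, the value was 1.85 and passed (edgeR adjusted p = 0.0218). Apoe was seen in all 32 captures, and the mean in spheroids was 4.02 CPM. Apoa1, the main protein of high-density lipoprotein, had medians of 64.3 and 26.7 CPM and highest levels of 715 and 353 CPM (edgeR adjusted p = 0.587). Its log2 fold change was 1.50, with 0.84 without high library 35, 2.14 without low library 22 and 0.68 without the captures above 5% ERCC. Apoc3, Apoc1 and Apoa2 had log2 fold changes of 1.21, 0.95 and 0.94.

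The remaining tested secreted proteins varied more. Ttr, the thyroid hormone carrier, and Gc, the vitamin D carrier, had log2 fold changes of 1.77 and 1.59. C3, the central complement protein, had medians of 290 and 88.4 CPM, yet its highest level, 2362 CPM, was in low library 32. Its log2 fold change was 0.81, which became 1.85 without library 32 and 0.54 without high library 33. Trf, the iron carrier transferrin, had 0.15 with medians of 181 and 53.0 CPM. Rbp4, the retinol carrier, had 0.64 and is also made by spheroid cells, at a mean of 93.2 CPM.

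Ahsg, which encodes fetuin-A, was the 1 tested plasma protein gene with a fold change below 0, at -1.67 (SE 1.06, edgeR adjusted p = 0.694). Its median was higher in the high set, 35.6 against 2.98 CPM, and it was seen in 16 high and 11 low captures. Low library 32 alone had 2086 CPM of Ahsg, 54.7% of its summed level. Without library 32 the log2 fold change was 0.35, and with limma-voom it was 1.72. Its direction therefore depended on 1 capture and on the model.

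**Figure D2:**
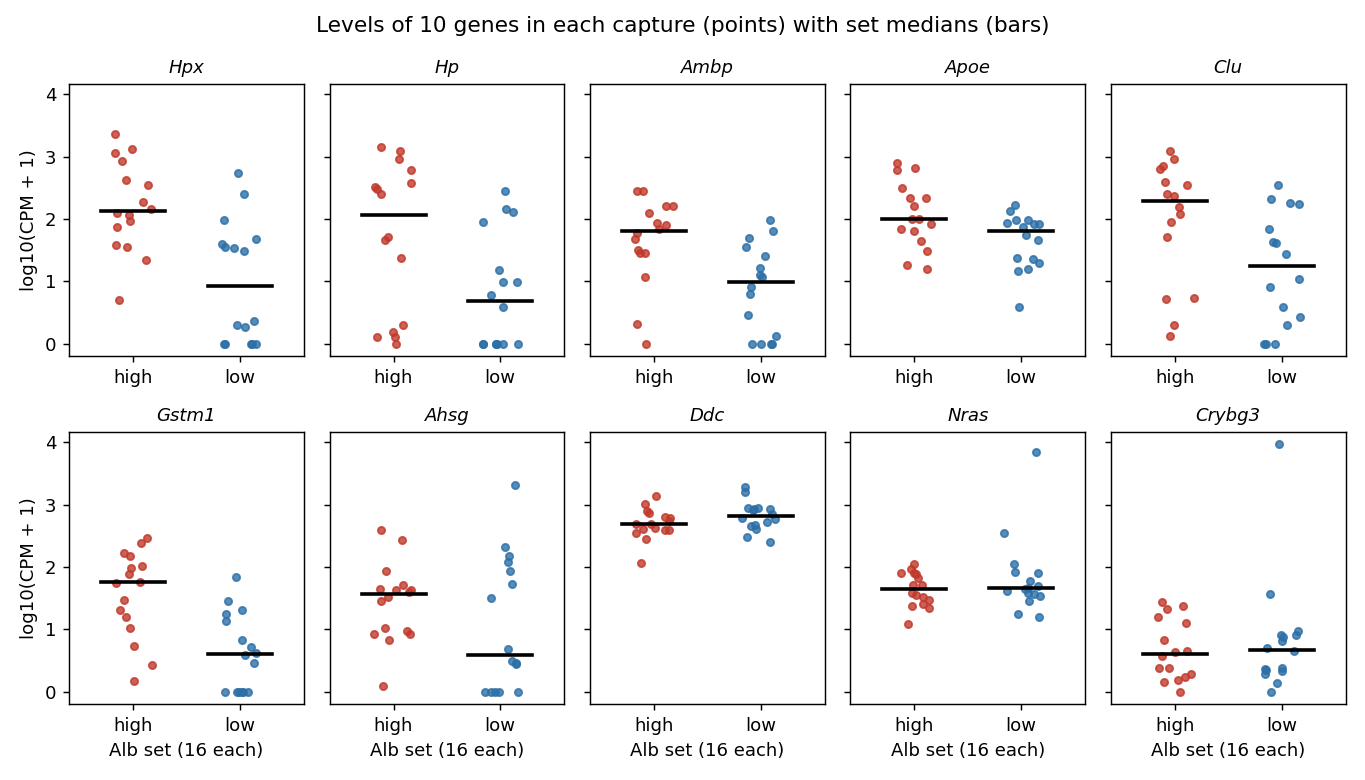
Levels of 10 genes in each of the 32 captures, as log10(CPM + 1), with the high Alb set in red, the low Alb set in blue and bars at the set medians on that scale. Hpx, Hp, Ambp, Clu and Gstm1 have most high captures above the low median; Ahsg, Nras and Crybg3 each have a single low capture far above all others; Ddc overlaps throughout.

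Counting genes seen, rather than levels, included the plasma protein genes that the filter removed. With every capture thinned to 718149 gene counts, the high captures held between 21 and 49 of the 59 genes, with a median of 33, and the low captures between 5 and 38, with a median of 22. The number was above the low median in 15 of 16 high captures, and 5 of these exceeded every low capture. Of the 58 genes seen, 49 were seen in more high captures and 3 in more low ones, which is 84.5% against 48.2% for all genes. Fgg, the fibrinogen gamma chain, was seen in 12 high and 2 low captures in the full data, and Azgp1, a zinc-binding glycoprotein, in 13 and 2. Reads of these genes were still seen in both sets, as the low captures carried a median of 22 of them. The number seen in spheroid captures was not counted at this depth. The plasma protein sums of low libraries 28 and 29, 149 and 280 CPM, lay within the spheroid range of 7.22 to 334 CPM.

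The summed level of the 59 genes was above the low median in 12 of 16 high captures. It ran from 612 to 8712 CPM in the high set, with a median of 1869, and from 149 to 5633 CPM in the low set, with a median of 1033. The spheroid median was 88.1 CPM. Of the 16 captures with the highest sums, 11 were in the high Alb set and 5 in the low set. Low library 32 had 59.5 CPM of Alb but 5633 CPM of other plasma protein genes, while high library 8 had 343 and 612 CPM. In library 32, C3 and Ahsg made up most of that sum, Ahsg with 2086 CPM. Hpx, Hp and Ambp had 0.84, 0 and 11.7 CPM there. A capture with a high plasma protein sum was therefore not always in the high Alb set, and such a sum can rest on few genes. Without the 3 captures above 5% ERCC, the medians were 1865 and 1033 CPM.

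Major urinary proteins, small pheromone carriers that hepatocytes secrete, were measured in 20 genes, of which 15 were seen and 1 passed the filter. That gene, Mup14, had medians of 12.1 and 0.69 CPM and a log2 fold change of 1.23 (SE 0.92, edgeR adjusted p = 0.749). The summed level had a median of 119 CPM in the high set and 9.94 CPM in the low set, with highest values of 407 and 146 CPM. Without the 3 captures above 5% ERCC the medians were 89.9 and 12.0 CPM. At the common depth all 13 genes of the family that remained were seen in more high captures, against 48.2% of all genes. Mup1 was seen in 6 high captures and in 0 low ones. These genes are near-identical copies, so reads can be split or moved between them, and the sum is more reliable than any single member. The spheroids held none of them.

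Acute phase genes, which hepatocytes raise in inflammation, had 16 members, and 0 passed the filter. Their summed level had medians of 44.7 and 13.8 CPM. At the common depth 10 of the 14 seen (71.4%) were seen in more high captures and 1 (7.14%) in more low ones. Over all genes these shares were 48.2% and 28.5%. Lcn2, the iron-sequestering protein lipocalin 2, was seen in 10 high captures and 1 low one, but library 35 held 88.2% of its summed level. Cfb, complement factor B, is on none of the lists and is named because it was among the 10 genes most like Alb in level. It was seen in 13 high captures at up to 313 CPM and in 6 low captures at up to 2.07 CPM. In 12 high captures Cfb lay above every low capture, but it did not pass the filter on low counts. Its choice by likeness to Alb makes such a separation likely, so these values are a description.

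Metabolic enzymes of hepatocytes gave a different picture in level and in detection. Of 76 genes, 70 were seen and 11 passed the filter, and 6 of these lay above 0 and 5 below, with a median of 0.07 and 0 called by edgeR. Of the 11, 1 was higher and 1 lower at an unadjusted p under 0.05. The summed level had medians of 577 and 569 CPM, with ranges of 275 to 1488 and 112 to 1977 CPM. Without the 3 captures above 5% ERCC the medians were 578 and 778 CPM. At the common depth, however, 47 of the 65 enzyme genes seen (72.3%) were seen in more high captures and 7 (10.8%) in more low ones. Over all genes these shares were 48.2% and 28.5%. The immediate early and stress list below, which is not a hepatocyte list, had a like share of 72.2%. The median number of enzyme genes per capture was 21.5 against 15. All 16 high captures held more enzyme genes than the low median. Fabp1, the liver fatty acid carrier, was seen in 14 high and 8 low captures.

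Gstm1, a glutathione transferase, was the enzyme gene with the largest fold change, 3.08 (SE 0.89, edgeR adjusted p = 0.356). It had 0.50, 55.9 and 297 CPM in the high set and 0, 3.10 and 69.0 CPM in the low set, and 7 high captures lay above all low ones. DESeq2 called it at an adjusted p of 0.0405. Spheroid captures expressed Gstm1 at a mean of 90.8 CPM, and its source was not separated here. It belongs to a family of near-identical genes. Ahcy, which breaks down S-adenosylhomocysteine, lay lowest at -2.06 (SE 0.94, adjusted p = 0.541), and low library 3 held 43.2% of its summed level.

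The zonation markers did not separate the sets. Sdsl and Asl of the periportal list had log2 fold changes of 0.10 and -1.06, and Glul, the glutamine synthetase of pericentral hepatocytes, had 0.73 with a mean of 16.1 CPM in spheroids. The summed periportal level had medians of 191 and 130 CPM, which turned to 167 and 185 CPM without the 3 captures above 5% ERCC. The summed pericentral level had 25.7 and 33.6 CPM. Of 12 liver transcription factors measured, 1 passed the filter, Hhex, at -0.64, and the spheroids expressed it at 79.0 CPM. The summed level of the 12 had medians of 29.0 and 12.8 CPM, both below the spheroid median of 47.7 CPM. At the common depth 8 of the 10 seen (80.0%) were seen in more high captures and 0 in more low ones. Over all genes the shares were 48.2% and 28.5%.

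Other liver cell types were followed by their markers. Haemoglobin and other erythrocyte genes had summed medians of 759 and 188 CPM, with ranges of 12.5 to 3747 and 0.59 to 2512 CPM. Their 3 tested genes, Hba-a1, Hba-a2 and Hbb-bs, had log2 fold changes of 0.38, 0.28 and 0.83. The Kupffer cell and macrophage list had summed medians of 99.1 and 73.8 CPM, and at the common depth the median number of its 21 genes seen was 7 against 2. Clec4f, which defines Kupffer cells, was seen in 8 high and 3 low captures, and Cd74, the class II invariant chain, had a log2 fold change of 1.07 (SE 1.09, adjusted p = 0.829). Sinusoidal endothelial genes had summed medians of 67.2 and 93.1 CPM and a median of 4 genes seen in each set, and Stab2 was seen in 3 and 1 captures. Stellate and fibroblast genes had summed medians of 270 and 309 CPM with 9 against 5 genes seen. Lymphocyte genes summed to medians of 8.59 and 7.55 CPM, and 0 passed the filter. At the common depth, 5 of 6 erythrocyte genes (83.3%), 14 of 19 Kupffer cell and macrophage genes (73.7%) and 11 of 16 stellate genes (68.8%) were seen in more high captures. The same held for 8 of 15 endothelial genes (53.3%) and 3 of 9 lymphocyte genes (33.3%), against 84.5% of plasma protein genes and 48.2% of all genes. Differences between these shares were not tested. The part of these cells in the other differences was not tested.

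Clu, which encodes the secreted chaperone clusterin and stood on the bile duct list, had 0.35, 197 and 1251 CPM in the high set and 0, 18.3 and 357 CPM in the low set. Its log2 fold change was 2.14 (SE 0.93, edgeR adjusted p = 0.504). Clu had no reads in spheroid captures. Krt7, another bile duct marker, had medians of 6.84 and 7.30 CPM and a log2 fold change of -0.34, and spheroids expressed it at 84.6 CPM.

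Genes of the tumour cells were next compared. Neuroendocrine genes had 32 members, of which 23 passed the filter. Of these, 8 lay above 0 and 15 below, the median was -0.23 against -0.04 for all genes, 0 were called by edgeR, and at an unadjusted p under 0.05 there was 1 lower and 0 higher. Their summed level ran from 3786 to 7139 CPM in the high set, with a median of 4866, and from 2482 to 10706 CPM in the low set, with a median of 6015. The spheroid median was 6181 CPM. Every capture thus held tumour RNA, in the high set as in the low set.

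Ddc, which makes dopamine and serotonin from their precursors, was the neuroendocrine gene with the smallest p. It had 116, 486 and 1384 CPM in the high set and 256, 667 and 1891 CPM in the low set, a log2 fold change of -0.72 (SE 0.31, edgeR adjusted p = 0.490). Chga, the granule protein chromogranin A, had -0.68 (SE 0.39), with medians in the other order, 294 and 265 CPM, and -0.29 without low library 25. Stmn1, a microtubule regulator, had -0.27, and Cpe, a prohormone-processing enzyme, had 0.14. The sets overlapped for these 4 genes, with at most 1 high capture above all low ones.

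Calca, the calcitonin gene, had a log2 fold change of 0.98 (SE 0.91, adjusted p = 0.806), with medians of 9.42 and 3.71 CPM. High library 23 held 33.7% of its summed level, and without it the value was -0.14, while without low library 25 it was 1.78. Mycl, a Myc family gene, had 0.58 with medians of 113 and 69.3 CPM. Their differences were within the spread between captures.

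Growth and metabolic programmes of the tumour cells lay near the centre of all genes. All 32 proliferation genes were tested, 13 lay above 0 and 19 below, and the median was -0.09. At an unadjusted p under 0.05, 1 was higher, the checkpoint kinase Bub1 at 2.22, and 2 were lower, Aurkb at -2.02 and Mcm3 at -1.70. In each of the 3 a single capture held a large share of the summed level, library 23 41.9% of Bub1, library 17 52.9% of Aurkb and library 3 37.7% of Mcm3. Mki67, the standard proliferation marker, had medians of 492 and 455 CPM and a log2 fold change of 0.40. Hypoxia and glycolysis genes had a median of 0.01 over 15 tested, and cholesterol and fatty acid synthesis genes -0.22 over 11.

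Ddit4, an inhibitor of mTOR signalling that hypoxia and stress induce, was the glycolysis and hypoxia gene with the smallest p, at -1.93 (SE 0.70, adjusted p = 0.454), and low library 30 held 33.9% of its level. Mitochondrially encoded genes had 2 of 12 tested above 0 and a median of -0.23, with summed medians of 13770 and 21564 CPM. Immediate early and stress genes had 5 of 6 above 0 and a median of 0.39, but their summed level had medians in the other order, 2628 and 3229 CPM, and 4 of 16 high captures lay above the low median. At the common depth 13 of the 18 stress genes seen (72.2%) were seen in more high captures and 1 (5.56%) in more low ones. Over all genes these shares were 48.2% and 28.5%. edgeR called 0 genes in each of these lists.

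Interferon and MHC class I genes had 5 of 6 tested members above 0 and a median of 0.96, and at an unadjusted p under 0.05, 2 were higher. H2-K1, an MHC class I heavy chain, had 1.00, 142 and 1952 CPM in the high set and 0, 26.2 and 332 CPM in the low set, a log2 fold change of 2.48 (SE 0.89, edgeR adjusted p = 0.454). High library 35 held 42.5% of its summed level. Psmb8, an immunoproteasome subunit, had 1.63 (SE 0.74, adjusted p = 0.538), and library 1 held 37.0%. B2m, the class I light chain, had 0.14. The summed level of the 21 genes had medians of 423 and 182 CPM, with a spheroid median of 314 CPM, and tumour and host shares were not separated.

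**Figure D3:**
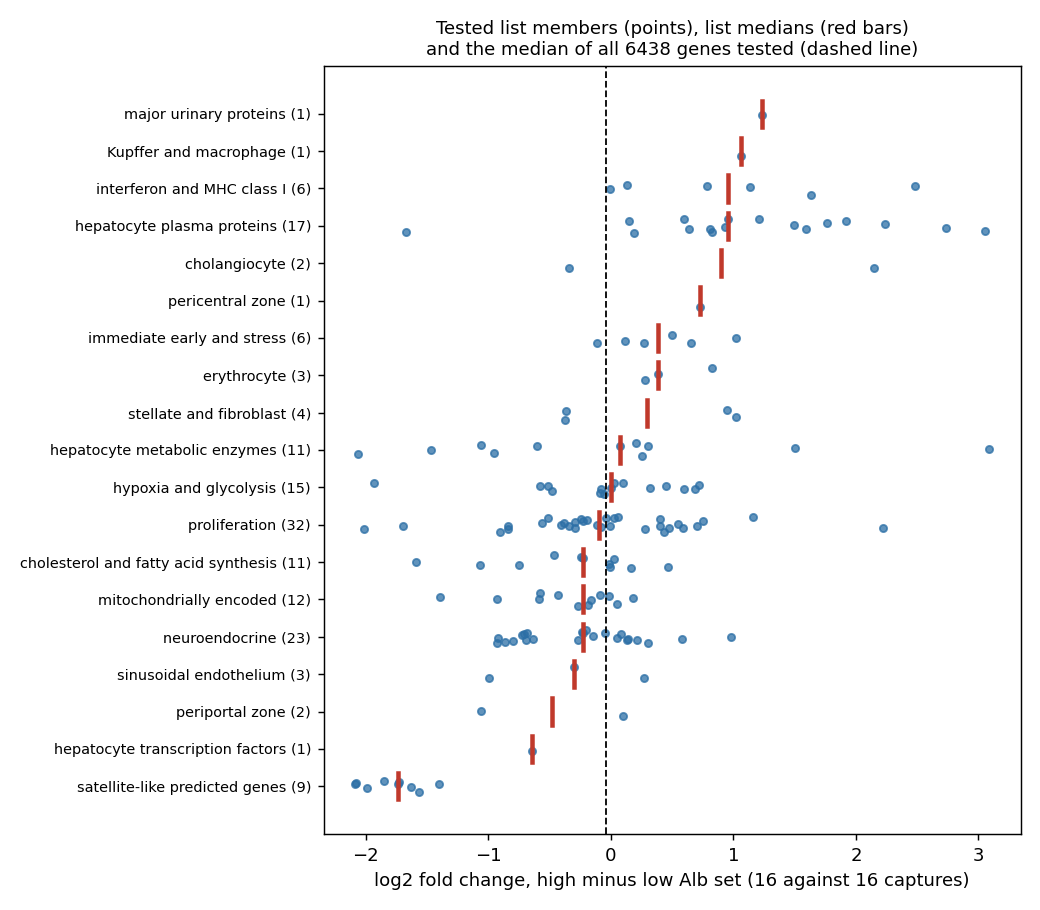
Log2 fold change of each tested list member (points), high against low Alb set, with list medians (red bars), the number tested in brackets and the median of all 6438 genes (dashed line at -0.04). Plasma protein genes have 16 of 17 points above 0, and neuroendocrine, proliferation and synthesis lists spread around the line; the lowest list, satellite-like predicted genes, was assembled after values were seen.

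To separate host from tumour transcripts without using Alb, each tested gene was classed by its mean in the 28 spheroid captures, which hold no liver. Of 138 host genes (under 1 CPM in spheroids), 58 lay above 0, the median was -0.27, and 14 had an unadjusted p under 0.05, 7 higher and 7 lower. Of 5331 tumour genes (at least 10 CPM), 2629 lay above 0, the median was -0.01, and 177 were higher and 267 lower at that p. The 969 genes between had a median of -0.22. edgeR called 0 in each class. The side on which the host class lay depended on its limit. With a limit of 0.1 CPM in spheroids it held 28 genes, of which 22 lay above 0, with a median of 0.89, and 3 were higher and 0 lower at an unadjusted p under 0.05.

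Likeness to Alb was measured as the Spearman correlation over the 33 captures, among 7271 genes whose mean over the captures was 10 CPM or more. The values describe these libraries, which share depth and composition. The 10 genes most like Alb were Hpx (0.66), Ambp (0.64), Hp (0.60), Leprot (0.58), Fetub (0.58), Agpat2 (0.58), Mug1 (0.57), Nedd4l (0.57), Cfb (0.56) and Cd44 (0.56). Of these 6 are secreted hepatocyte products, namely Hpx, Ambp, Hp, Fetub, Mug1 and Cfb. Leprot, a regulator of leptin receptor traffic, and Nedd4l, a ubiquitin ligase, were in the tumour class. The 33 plasma protein genes in this group had a median of 0.42, and 32 lay above 0, against a median of 0.06 for all genes and 0.06 for 23 neuroendocrine genes.

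Single captures carried several of these. Library 1 held 94.6% of the summed level of Agpat2, a lipid synthesis enzyme, 75.5% of Nedd4l and 67.7% of Cd44, the hyaluronan receptor. Nedd4l had medians of 7.79 and 0.86 CPM and highest levels of 1016 and 6.06 CPM, and 8 high captures lay above all low ones. It did not pass the filter in the full comparison. With high library 10, 21, 27 or 35 left out in turn it entered the test and was called as the 1 gene that passed.

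Some of the genes with the smallest p also had most of their level in 1 capture. They are named after their values were seen. Nras, a small GTPase, had medians of 44.4 and 44.4 CPM in the high and low sets, and a log2 fold change of -4.14 (SE 0.96, edgeR adjusted p = 0.264). Low library 30 held 7122 CPM of it, 79.4% of the summed level. Crybg3 had -6.64, and low library 32 held 97.9% of it. March11 had -5.37, and library 30 held 74.1%. Without library 30 the value for Nras was -0.50, without the captures above 5% ERCC it was -0.58, and with the ERCC share as a covariate it was 0.0070.

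Over all 339 genes that were lower at an unadjusted p under 0.05, 77 (22.7%) had more than 50% of their summed level in 1 capture, against 28 of the 226 higher genes (12.4%) and 2.45% of all tested genes. For 216 of the 339 (63.7%) the highest level was in low library 3, 5, 30 or 32. All 339 peaked in a low capture, as their choice by direction makes likely, so the base is the 3576 tested genes that peaked in a low capture, of which 1298 (36.3%) did so in these 4. The 4 captures were picked after their values were seen. Libraries 3, 30 and 32 were among the captures with fewest gene counts, between 718208 and 1193627, and library 5 was above 5% ERCC. What part depth or ERCC share played was not tested. Mterf4, a mitochondrial ribosome assembly factor, was also among the smallest p values, with 17.8, 65.2 and 1333 CPM in the high set and 0, 24.0 and 78.2 CPM in the low set. Its log2 fold change was 3.01 (SE 0.72, edgeR adjusted p = 0.264), DESeq2 called it (adjusted p = 0.0176), and 7 high captures lay above all low ones. High library 10 held 40.6% of its summed level, and without it the value was 2.07.

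The same order by Alb was then made in other libraries, which did not enter the sets above. In the 35 nude liver pool-and-split controls, the 17 highest had 189 to 3819 CPM of Alb and the 17 lowest 0 to 163 CPM. Over all 35 pools Alb averaged 345 CPM (SD 676), against 369 CPM (SD 367) over the 33 captures. By their name the pools share source material, so Alb also spread widely between libraries of shared material. What part such spread had in the Alb order of the captures was not tested. edgeR called 0 of 5140 genes (0.0%), and DESeq2 called 69. At an unadjusted p under 0.05 there were 507 genes (9.86%), 4.36% higher and 5.51% lower. Of 14 tested plasma protein genes, 0 were higher and 1 lower at that p. Of the 14, 6 lay above 0, against 45.8% of all genes, and the median was -0.03 against -0.09. Hpx had medians of 279 and 288 CPM and a log2 fold change of -0.64 (SE 0.61, adjusted p = 0.785), and Hp had -0.77 (SE 0.64). At a common depth of 956718 counts the pools held medians of 25 and 22 of the 59 genes, and 27 of 58 were seen in more high pools and 16 in more low ones. These shares, 46.6% and 27.6%, compare with 43.2% and 33.9% of all genes. Of 13 acute phase genes seen in pools, 10 (76.9%) were seen in more high pools and 2 in more low ones, with summed medians of 31.3 and 7.26 CPM. In 3 pools ERCC took more than 25% of counts, and they lay at both ends of the Alb order. Pools 22 and 21 had the highest Alb, 3819 and 1486 CPM, with 25.7% and 26.0% ERCC, and pool 25 had 0 CPM with 31.2%. Without these 3, an alternative chosen after seeing the data, the highest Alb was 885 CPM and edgeR again called 0 genes. Of the 14 plasma protein genes 9 then lay above 0, with a median of 0.16 against -0.07 for all genes, so the sign of the pool median depended on these pools.

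The F1 liver captures were ordered in the same way. The 15 highest of 31 had 10.7 to 542 CPM and the 15 lowest 0 to 7.64 CPM, of which 7 had no Alb read. edgeR called 0 of 6045 genes (0.0%). At an unadjusted p under 0.05 there were 408 (6.75%), 3.49% higher and 3.26% lower. Of the 59 plasma protein genes 8 passed the filter, and all 8 lay above 0 (47.6% of all genes did), with a median of 2.57 and 5 higher at that p. Genes that the low captures mostly lack can pass the filter through the high set alone, so these 8 values are a description. Medians of 29 and 7 of the 59 genes were seen per capture at a common depth of 1646338 counts, and 54 of the 56 seen (96.4%, against 43.6% of all genes) were seen in more high captures. All 7 erythrocyte genes seen were also seen in more high F1 captures, a part in the result that was not tested, and their summed medians were 2348 and 527 CPM, with 14 of 15 high captures above the low median. Hpx was seen in 12 high captures and 2 low ones. The summed plasma protein level had medians of 1222 and 112 CPM, although 1 low F1 capture reached 3754 CPM. Whether the nude and F1 differences differ was not tested.

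**Figure D4:**
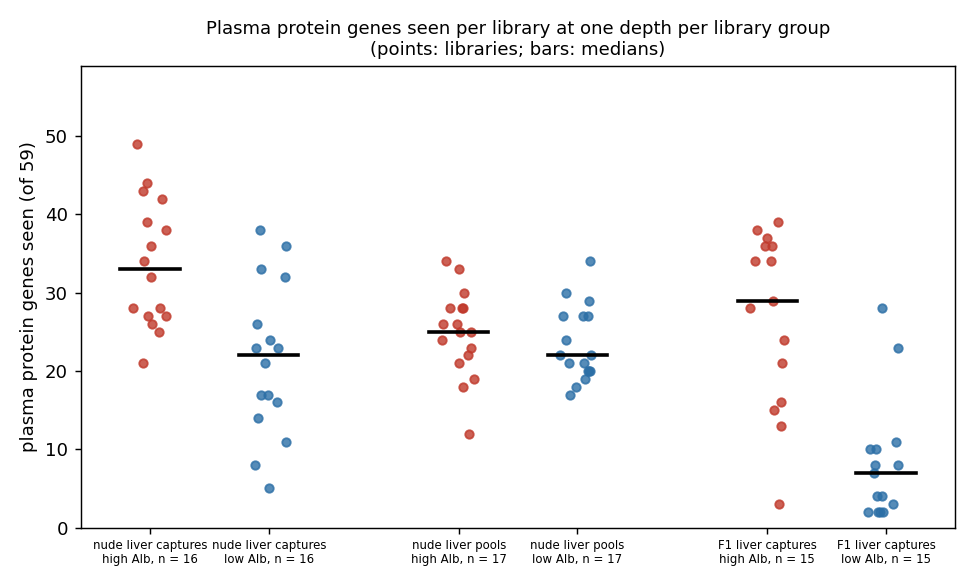
Number of the 59 plasma protein genes seen in each library (points) after thinning to 1 depth per library group, for high (red) and low (blue) Alb sets of nude liver captures, nude liver pools and F1 liver captures; bars are medians. The medians are 33 and 22 in nude captures, 25 and 22 in pools, and 29 and 7 in F1 captures.

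A direct test asked whether the difference by Alb in captures differed from that in pools. edgeR's interaction contrast called 52 of 8450 genes (0.615%), with 23 higher and 29 lower in captures. At an unadjusted p under 0.05, 12.4% of genes differed, 6.24% higher and 6.21% lower, and 51.2% of all differences lay above 0. Of these, 25 were in the tumour class, 23 intermediate and 4 in the host class, and 12 had more than 50% of their summed level in 1 library. In captures alone, 15 of the 52 had passed the filter. Without the 3 pools above 25% ERCC the contrast called 56 genes, 42 of them in common with the 52. Members of the lists made up 3 of the 52, all of them hepatocyte products. The share of list members among all 8450 genes was not counted, so this number is no result about hepatocyte genes. For Hpx and Hp the differences were 3.20 (SE 1.16, edgeR adjusted p = 0.184) and 3.72 (SE 1.32, adjusted p = 0.172) and did not pass.

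Serpina1a, an alpha-1-antitrypsin gene, had a difference of 7.25 (SE 1.84, edgeR adjusted p = 0.0391). It was seen in 14 high and 6 low captures, with medians of 6.72 and 0 CPM, and in 4 high and 8 low pools, of which 1 low pool reached 252 CPM. Serpinc1, antithrombin, had a difference of 4.56 (SE 1.16, adjusted p = 0.0391), with medians of 4.44 and 1.72 CPM in captures and 1.76 and 4.81 CPM in pools. Mup9, a major urinary protein gene, had 8.28 (SE 1.79, adjusted p = 0.0146), with medians of 7.95 and 0 CPM in captures and 0 and 0.86 CPM in pools. Its counts equal those of the unnamed gene CT571246.5 in every library, and the 2 cannot be told apart. All 3 are low in most libraries, and their fitted differences rest on few reads. Mup9 passed the filter in neither captures nor pools alone. The joint filter counts libraries of all sets, so a gene can enter through the sets where it is high.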

How the data were processed

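RNA from 10-cell samples was sequenced as described above. Per gene and library, the authors deposited expected counts (estimated reads, which need not be whole) with no scaling between libraries; the submitters' processing notes name RSEM, Bowtie2, GRCm38 and GRCh38.p12 without role or order. Counts were rounded to whole numbers. The 92 ERCC spike-in rows and Alb were left out of library sizes and tests, and CPM was computed over all 31581 genes including Alb. GENCODE M21 held 31414 of the identifiers, 92.4% with the same coordinates.

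Sets were compared in R 4.3.3 with edgeR 4.0.16 (TMM, filterByExpr, robust quasi-likelihood F test, Benjamini-Hochberg), with DESeq2 1.42.0 and limma 3.58.1 (limma-voom) as alternatives, at an adjusted p under 0.05. Standard errors are those of the edgeR fit. Library measures were tested by permutation. The code was tested on simulated counts with 200 changed genes. Genes were to be named if called with an absolute log2 difference of 1 or more and a mean of 10 CPM or more, up to 12 per direction; none met this, so list members and the 10 genes most like Alb are named, and others are said to be chosen after their values were seen. The lists and the Alb rule were chosen with earlier results of these data known. No pair of captures looked like repeats of 1 library (lowest chi-squared per degree of freedom 74.9 over 528 pairs).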

Additional observations from a re-analysis of the deposited data

Results flagged for a closer look

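The difference between the Alb sets was itself different in captures and in pools for 52 of 8450 genes (0.615%), by the interaction contrast of edgeR. Of the 52, 15 had passed the filter in captures alone, and 12 had more than 50% of their level in 1 library. Of the 52, 3 were members of the hepatocyte lists, and the share of these lists among all genes tested was not counted. The difference of log2 fold change, captures minus pools, was 4.56 for Serpinc1, 7.25 for Serpina1a and 8.28 for Mup9, higher in captures for all 3. These 3 genes are low in most libraries, and Mup9 passed the filter in neither captures nor pools alone. With RLE scaling in place of TMM the count was 54. Without the 3 pools above 25% ERCC it was 56, and the 3 differences were 5.10, 7.46 and 8.26.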

How the results depend on the processing

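The count of 0 called genes between the capture sets held with RLE and TMMwsp scaling, non-robust estimation, Alb in the library total, limma-voom, the 11 highest against the 11 lowest captures, and gene counts, ERCC share or genes detected as a covariate. DESeq2 called 13. With no filter 2223 of 18773 genes were called, of which 1836 were seen in 8 or fewer of the 33 captures and 64 were among the genes of the main test. When the filter was a mean of 10 CPM or more, 119 of 7263 were called. Alb as a continuous covariate gave 42 calls, 7 higher and 35 lower, and, in alternatives chosen after seeing the data, 40 without library 5 and 66 without libraries 5 and 28. Without captures above 5% ERCC, 1 gene was called (Nedd4l), and leaving out each capture in turn gave 0 to 1. In pools, DESeq2 called 69 and no filter 3410; in F1 captures no filter gave 2251, and for captures against pools 1969. limma-voom moved the median of all genes from -0.04 to 0.12.

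The median of plasma protein genes ranged from 0.70 to 1.47 with each capture left out and from 0.67 to 1.90 under 13 other settings; that of neuroendocrine genes ranged from -0.34 to 0.10. Directions turned for this neuroendocrine median (-0.23, and 0.10 with limma-voom), Ahsg (1.72 with limma-voom, 0.76 with genes detected as covariate, -2.18 to 0.35 with each capture left out, the upper value without library 32), Calca (-0.14 with DESeq2, -0.14 to 1.78 with each capture left out, the lower value without library 23), Nras (0.0070 with ERCC as covariate) and the mitochondrial share (0.0220 percentage points with 11 against 11 captures). Without captures above 5% ERCC, the order of the summed medians also turned for the periportal (167 and 185 CPM), enzyme (578 and 778), proliferation (5316 and 5531), cholesterol synthesis (1390 and 1404) and satellite-like (221 and 206) lists. The causes were not tested. No paired analysis was possible because each library carries its own number and the sets share none. Precision is limited by 10-cell input: a gene at 1 CPM rests on about 1 to 4 reads, and PCR reads without molecular identifiers are not independent molecules.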

Other observations

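Among 12 predicted genes with satellite-like repeats, a list assembled after values were seen, 0 of 9 tested lay above 0, and the median was -1.73. Their summed medians were nearly alike, 231 CPM in the high and 256 CPM in the low set, and the highest captures reached 1345 and 4362 CPM. Without the 3 captures above 5% ERCC the medians were 221 and 206 CPM. The spheroid median was 0.52 CPM. In pools 2 of 12 lay above 0, with a median of -0.53.

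Haemoglobin RNA and Alb had a Spearman correlation of 0.121 over the 33 captures, given as a description. The erythrocyte list as a sum was above the low median in 13 of 16 high captures. As 2 examples chosen after their values were seen, high library 33, with the highest Alb, had 12.5 CPM of haemoglobin, and low library 25, with 72.8 CPM of Alb, had 2511 CPM.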
